A study of Mus musculus with 32 samples.

Results

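Of the 4 libraries made from pools of 10 cells, 2 held a very high level of Ttr, the thyroid hormone carrier that choroid plexus epithelium secretes into the cerebrospinal fluid. A pool was placed on the Ttr-rich side when its Ttr value was at least 1000 FPKM, the number of fragments scaled to a transcript length of 1 kb and to 1000000 mapped fragments. This selected pools 1 and 4, at 33894 and 19813 FPKM, and left pools 2 and 3, at 19.5 and 25.1 FPKM, on the Ttr-poor side. The pools come from a series of 32 libraries, the other 28 of which hold 1 cell each. Every library was made from mouse subventricular zone, the forebrain region in which neurons are still born after birth, at postnatal day 21. All pools carry the same labels: no strain, genotype, treatment, animal, sort or dissection is named that tells them apart, so the sides differ only by the measured values that chose them. Because the pools were chosen by Ttr, and only 2 libraries stand on each side, everything that follows is a description, with no test between the sides and no p-value. Whether the 4 pools came from different animals is not given in the labels, and the spread between them may be technical.

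The lateral ventricle brings several tissues close together. Choroid plexus is a folded epithelium on a bed of vessels that makes cerebrospinal fluid by moving ions and water through its cells, and that secretes carrier proteins. Oligodendrocytes wrap axons in myelin, a membrane rich in cholesterol and in a few abundant proteins such as Mbp and Mag. Brain endothelial cells line the vessels, are sealed by tight junctions of which Cldn5 is the main claudin, and feed the brain through a set of membrane transporters. In pools of 10 cells, the level of a gene sums over every cell taken, so fewer cells of a type and less RNA per cell cannot be told apart.

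Values are given below in one order throughout: pools 1 and 4 (Ttr-rich), then pools 2 and 3 (Ttr-poor). A gene was called higher on one side only where both of its pools lay above both of the other side. A stricter call asked for a gap of 4-fold, the gap being the lowest value of the higher side plus 1 FPKM over the highest value of the lower side plus 1 FPKM. Of 17068 symbols with at least 1 FPKM in any pool, Ttr left out, 3200 (18.7%) were higher on the Ttr-rich side and 2970 (17.4%) on the Ttr-poor side. With the gap of 4-fold these were 559 (3.28%) and 529 (3.1%). These shares are the background for every count below, but since the sides were chosen by one of the genes, nothing is read from the excess of a list over them. A log2 ratio below is log2 of (mean FPKM of pools 1 and 4 + 1) over (mean FPKM of pools 2 and 3 + 1), on which changes of weakly expressed genes come out too small. Its median over all 17068 symbols was -0.11.

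**Figure D1:**
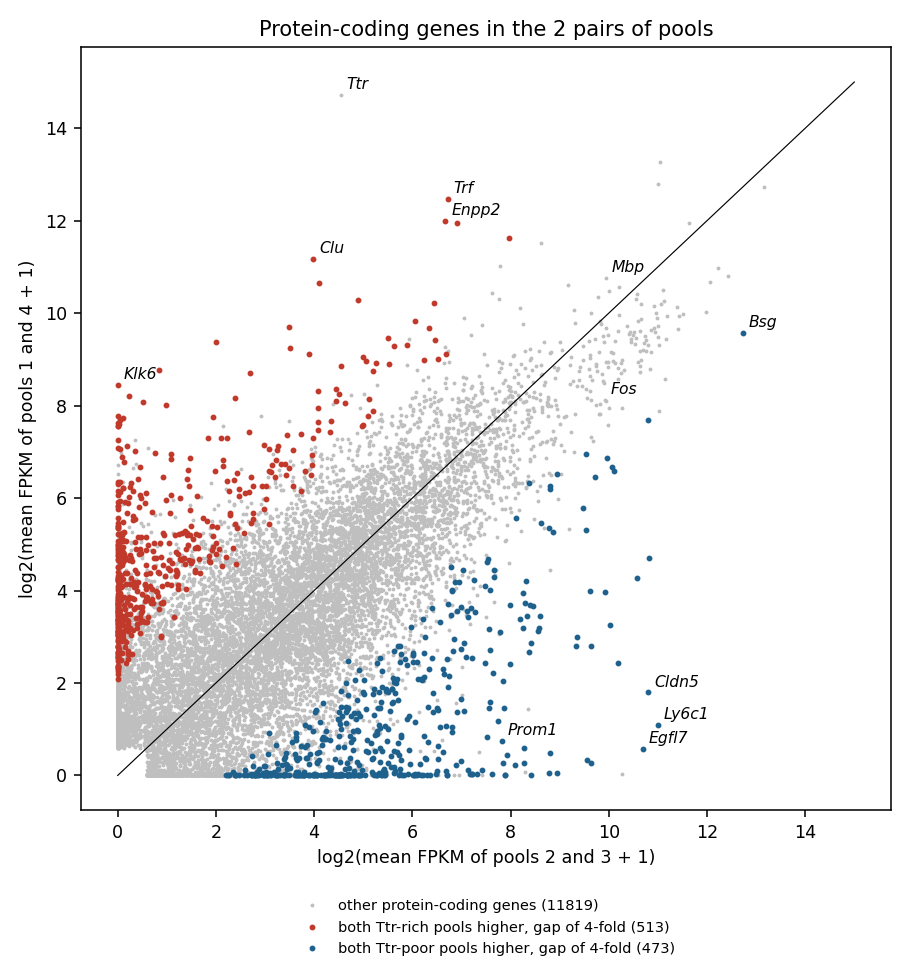
Each point is a protein-coding gene, at log2(mean FPKM + 1) of pools 2 and 3 on the x axis and of pools 1 and 4 on the y axis, with the line of equal values. The 513 red genes and the 473 blue genes have both pools of one side above both of the other by at least 4-fold; Ttr stands alone at the top, while Mbp and Fos are grey since their pools overlap or lie closer together.

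The pools differed in ways that cross the Ttr grouping. Pools 1 and 2 had 9.94% and 13.2% of their summed FPKM in processed pseudogenes, and pools 3 and 4 had 3.06% and 1.85%. The pools had 10478 to 12870 symbols at FPKM of at least 1. Depth is known only roughly: the commonest fragment step put pool 1 at about 16.4 and pool 2 at about 13 in units of 1000000 fragments, and no step was clear in pools 3 and 4. Because each side holds 1 pool with many pseudogene fragments and 1 with few, list medians were also taken for pool 1 over pool 2 and for pool 4 over pool 3. For choroid markers and choroid ion transport they are given below. They were 4.04 and 7.19 for oligodendrocyte markers, 0.50 and 3.69 for cholesterol synthesis and -0.14 and 3.40 for astrocyte markers. For microglia markers they were -4.08 and -1.36, for endothelial markers -5.95 and -6.16 and for immediate early genes -2.58 and -3.25. An exact 0 in this table can be a failed estimate, so such genes are called listed at 0.

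Vessel and myelin genes, described below, lay on opposite sides, and the stretch around the transcription start is shown for 2 genes of each. The windows run from 250 bases before to 50 bases after the RefSeq gene start on GRCm38.p6, a build that matches the loci of the deposited table, 5′ to 3′ on the gene's strand. Capitals mark GGAAGT, the core that ETS factors (the family of Erg and Fli1) bind, in Flt1 and Eng, and ACAAAG, a core that SOX factors (the family of Sox10) bind, in Mobp and Mag. Either strand was searched, so ACTTCC and CTTTGT are the same cores read on the other strand. The Eng window also holds ACAAAG, which is left in lower case and does not overlap the match shown.

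Flt1 (chr5:147725962-147726261, minus strand): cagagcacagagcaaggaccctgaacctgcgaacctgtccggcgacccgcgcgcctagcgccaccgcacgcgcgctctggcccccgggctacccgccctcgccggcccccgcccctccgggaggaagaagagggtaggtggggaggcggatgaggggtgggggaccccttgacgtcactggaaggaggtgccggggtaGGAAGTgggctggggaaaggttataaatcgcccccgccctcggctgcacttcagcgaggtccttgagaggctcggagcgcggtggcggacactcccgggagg
Eng (chr2:32646345-32646644, plus strand): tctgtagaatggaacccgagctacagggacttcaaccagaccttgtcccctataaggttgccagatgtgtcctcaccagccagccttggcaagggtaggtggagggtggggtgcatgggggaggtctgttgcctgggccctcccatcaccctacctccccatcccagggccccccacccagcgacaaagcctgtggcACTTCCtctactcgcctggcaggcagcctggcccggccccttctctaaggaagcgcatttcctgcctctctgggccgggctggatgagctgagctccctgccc
Mobp (chr9:120149492-120149791, plus strand): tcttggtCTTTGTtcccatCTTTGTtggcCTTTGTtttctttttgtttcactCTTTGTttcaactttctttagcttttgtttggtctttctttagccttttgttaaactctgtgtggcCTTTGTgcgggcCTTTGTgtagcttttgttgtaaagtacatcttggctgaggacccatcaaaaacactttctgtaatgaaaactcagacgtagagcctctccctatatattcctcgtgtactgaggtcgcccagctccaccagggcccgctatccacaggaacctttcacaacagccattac
Mag (chr7:30914814-30915113, minus strand): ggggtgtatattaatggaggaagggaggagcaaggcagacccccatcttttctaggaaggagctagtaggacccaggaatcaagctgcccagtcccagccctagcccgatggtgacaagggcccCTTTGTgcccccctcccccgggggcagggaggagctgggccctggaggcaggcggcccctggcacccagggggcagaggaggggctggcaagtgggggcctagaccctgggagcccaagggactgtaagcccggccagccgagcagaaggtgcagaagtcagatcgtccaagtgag

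The windows of Flt1, Eng and Mag hold 1 match of the core shown and that of Mobp holds 6, most of them in a stretch of repeated short words. These 4 genes were chosen because they hold a match. GGAAGT was in 6 of 12 endothelial markers with a RefSeq window and in 4 of 15 oligodendrocyte markers, beside 26.6% of 27025 genes in the whole table. ACAAAG was in 6 of the 15 oligodendrocyte markers and in 4 of the 12 endothelial markers, beside 21.0% of all genes, so neither core was limited to the list of one side. The wider gene sets sat near those shares: GGAAGT was in 30.8% of 334 protein-coding genes called with the gap of 4-fold on the Ttr-poor side, and ACAAAG in 20.2% of 391 on the Ttr-rich side. A second ETS core, CGGAAG, was in 1 of the 12 endothelial and 1 of the 15 oligodendrocyte windows (18.8% of all genes), and a second SOX core, ACAATG, in 4 of the 15 oligodendrocyte and 1 of the 12 endothelial windows (14.3% of all genes). Of 4 further motifs searched, the CArG box and the cyclic AMP element TGACGTCA were each in 2 of 14 immediate early genes (1.81% and 2.03% of all genes), TAATCC was in 2 of 13 choroid plexus markers (8.14%) and GGGTGTGG in 1 of 12 endothelial markers (4.09%). In the other 3 of these 4 lists, each of these motifs was in at most 2 genes. The motifs were picked after the pool values had been seen, and a match of letters is not a binding site.

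Choroid plexus genes were high in both Ttr-rich pools and low or listed at 0 in the others, with a median log2(FPKM + 1) of the markers of 6.40 and 5.78 against 0.11 and 0.21. Of 18 choroid plexus markers, Ttr was set aside and the other 17 were all higher in pools 1 and 4, 12 of them with the gap of 4-fold. The median log2 ratio was 4.81. It was 5.39 for pool 1 over pool 2 and 4.25 for pool 4 over pool 3, so it did not rest on one pair. The folate receptor Folr1 had 933 and 279.6 FPKM against 0.972 and 19.9 FPKM. The potassium channel Kcnj13 had 739 and 325 FPKM against 5.66 and 56 FPKM. For both genes pool 3 was the higher of the Ttr-poor pools, and it stayed well under pools 1 and 4.

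Enpp2, which encodes the secreted enzyme autotaxin, had 6158 and 1978 FPKM against 146 and 55.4 FPKM, the highest level in this list after Ttr. The gene lies at GRCm38 chr15:54838898-54920146. Several defining genes of the epithelium were under 1 FPKM or listed at 0 in both Ttr-poor pools: the chloride channel gene Clic6 had 83.6 and 54 FPKM against 0 and 0.0606 FPKM, the prolactin receptor Prlr 155 and 63.4 FPKM against 0.0198 and 0.159 FPKM, and the secreted inhibitor Sostdc1 246 and 127 FPKM against a listing of 0 in both Ttr-poor pools. Of the 17 markers, 7 reached 1 FPKM in pool 2 and 7 in pool 3, against 17 in pool 1 and 17 in pool 4. The weakest separation was that of Calml4, a calmodulin-like gene, with 178 and 291 FPKM against 173 and 133 FPKM, whose highest single cell was an ependymal-led one and not the choroid-led one.

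The genes that move ions and water across the choroid epithelium followed the same pattern. Of 18, 17 were higher in pools 1 and 4 and 11 passed the gap of 4-fold, with a median log2 ratio of 3.47 (4.08 for pool 1 over pool 2 and 3.34 for pool 4 over pool 3). Slc4a5, Car12, Aqp1, Kcnj13, Kcne2 and Clic6 among them are also choroid plexus markers counted above, and each passed the gap. These lists are therefore not separate results. The bicarbonate transporters Slc4a5 and Slc4a10, the potassium channel subunit Kcne2, the carbonic anhydrase Car12 and the water channel Aqp1 were listed at 0 in both Ttr-poor pools. Aqp1 had 73.4 and 13.2 FPKM against a listing of 0 in both Ttr-poor pools, and Fxyd1, which tunes the sodium pump, had 227 and 150.5 FPKM against a listing of 0 in both Ttr-poor pools. The broadly used carbonic anhydrase Car2 had 876 and 483 FPKM against 75.7 and 99.4 FPKM. The sodium pump subunit gene Atp1b1 had 118 and 108 FPKM against 0.277 and 16.5 FPKM. The highest single cell was the oligodendrocyte-led cell 13 for Car2 and the neuroblast-led cell 28 for Atp1b1.

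Secreted and carrier proteins showed the same side with 3 exceptions. Of 14, 11 were higher in pools 1 and 4 (7 with the gap of 4-fold, median log2 ratio 4.72), Cp was higher in pools 2 and 3, and Cst3 and Stra6 overlapped. Enpp2, Folr1, Sostdc1 and Igf2 are again choroid plexus markers counted above, and Trf is also an oligodendrocyte marker. Igfbp2, which binds insulin-like growth factors, had 237 and 187 FPKM against 0 and 0.148 FPKM, and the growth factor Igf2 itself had 346 and 281 FPKM against 129 and 4.32 FPKM. Pool 2 thus held Igf2 at more than a trace. The chaperone clusterin, Clu, had 1229 and 3359.9 FPKM against 17.4 and 12.3 FPKM, higher in pool 4 than in pool 1. Its highest single cell was the ependymal-led cell 15. Ceruloplasmin, Cp, a copper-bearing ferroxidase, ran the other way with values of 0 and 49.9996 FPKM against 143 and 128 FPKM.

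Oligodendrocyte genes were high in the same pools as Ttr. Of 20 oligodendrocyte markers, 18 were higher in pools 1 and 4, 11 with the gap of 4-fold, and 2 overlapped, among them Mbp. The median log2 ratio was 3.85. Pool 2 stood between: the median log2(FPKM + 1) of the list was 8.18 in pool 1, 7.69 in pool 4, 5.32 in pool 2 and 0.18 in pool 3. Without pool 2 the median ratio was 7.65, and without any other single pool it was 3.62 to 4.02.

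Mal, a myelin lipid-raft protein, had 5862 and 2031 FPKM against 59.2 and 179 FPKM. Cnp, an enzyme of the myelin sheath, had 2758 and 1423 FPKM against 442 and 0.226 FPKM, and Mobp, a myelin protein, 1639 and 1147 FPKM against 387 and 2.22 FPKM. In these and in Mag, with 812 and 421 FPKM against 201 and 0.124 FPKM, pools 1 and 4 lay highest and pool 2 was lower, and pool 3 was under 3 FPKM except for Mal. Transferrin, Trf, which oligodendrocytes and choroid plexus both make, had 8091 and 3229 FPKM against 191 and 17.5 FPKM. Some members were under 1 FPKM or listed at 0 in pool 2 as well: Opalin had 221 and 163 FPKM against 0 and 0.0371 FPKM, the gap junction gene Gjb1 161 and 107 FPKM against a listing of 0 in both Ttr-poor pools, Ermn 148 and 129 FPKM against 0.229 and 0.0652 FPKM and Ppp1r14a 303 and 134 FPKM against a listing of 0 in both Ttr-poor pools. Pool 2 therefore carried part of the list at over 100 FPKM and another part at under 1 FPKM.

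Myelin basic protein, Mbp, the most used marker of this lineage, did not separate the sides, with 2239 and 1248 FPKM against 1969.6 and 3.41 FPKM. Pool 2 lay between both Ttr-rich pools, and pool 3 was near 0. In single cells 4, 12 and 13, led by this list, the highest value of Mbp was 4099 FPKM, in cell 4.

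Genes of the lineage's earlier steps were lower and less separated. Of 11 found in a pool, 7 were higher in pools 1 and 4, 1 of them with the gap of 4-fold, and none was higher in pools 2 and 3; the median log2 ratio was 2.46. Without pool 3 this median was 1.49. The lineage regulator Olig1 had 102 and 154 FPKM against 44.7 and 0.121 FPKM, Sox10 106 and 67.5 FPKM against 21.6 and 0.0227 FPKM and Enpp6, a marker of newly formed oligodendrocytes, 127 and 79.1 FPKM against 33.3 and 0 FPKM. Pdgfra, the growth factor receptor of precursors, was near the lower limit with 1.31 and 1.52 FPKM against 0.533 and 0 FPKM. Lims2, Gpr17, Cspg4 and Neu4 overlapped. Lims2 had 48.8 and 25.8 FPKM against 32.3 and 216 FPKM, and Gpr17 1.54 and 0.221 FPKM against 9.23 and 1.4 FPKM. Their log2 ratios were -1.71 and -1.75, while those of Cspg4 and Neu4 were 0.24 and 1.1. Cholesterol synthesis genes, whose product myelin needs in bulk, split by pool 3 and not by Ttr. Of 14, 7 were higher in pools 1 and 4 and 7 overlapped, with list levels of 5.69, 5.24 and 5.13 in pools 1, 4 and 2 and of 1.22 in pool 3. Their median log2 ratio of 1.27 became 3.78 without pool 2 and 0.47 without pool 3. Fdps had 269.6 and 138 FPKM against 158 and 17.1 FPKM, and Cyp51 had 161 and 97.1 FPKM against 129 and 3.13 FPKM.

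**Figure D2:**
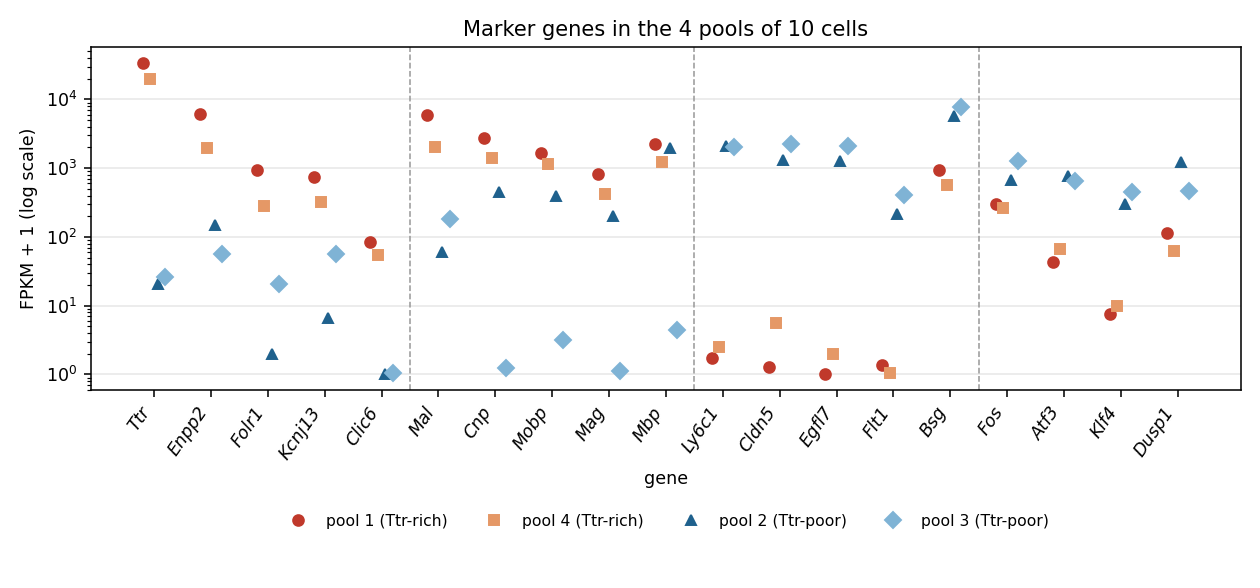
FPKM + 1 on a log scale for 19 genes in each of the 4 pools, in blocks of choroid plexus, oligodendrocyte, endothelial and immediate early genes. Both Ttr-rich pools lie above both others in the choroid block, pool 2 sits among the Ttr-rich pools for Mbp, and the endothelial and immediate early genes lie higher in pools 2 and 3.

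Endothelial genes showed the reverse. All 20 endothelial markers were higher in pools 2 and 3, 19 with the gap of 4-fold, and the median log2 ratio was -6.22, from -5.93 to -6.33 when any single pool was left out. Cldn5 (GRCm38 chr16:18776847-18778260), the tight junction claudin of brain vessels, had 0.301 and 4.64 FPKM against 1305 and 2268 FPKM. The surface antigen Ly6c1 had 0.754 and 1.53 FPKM against 2076 and 2019 FPKM, and Egfl7, a secreted factor of endothelium, had 0 and 0.982 FPKM against 1261 and 2066 FPKM. Each of these pools 2 and 3 values was above 1000 FPKM, and no Ttr-rich value of the 3 genes reached 5 FPKM.

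Of the 20 markers, 20 reached 1 FPKM in each Ttr-poor pool, while 5 did so in pool 1 and 8 in pool 4. The highest of them in the Ttr-rich pools was Pltp, a phospholipid transfer protein, with 125 and 345 FPKM against 1145 and 3007 FPKM, which is the marker that missed the gap of 4-fold. The transcription factors Sox17 and Erg were listed at 0 in both Ttr-rich pools, and had 26.8 and 58.8 FPKM, and 7.51 and 25.9 FPKM, in pools 2 and 3. Among the largest gaps on this side outside the list were Car4, a membrane-bound carbonic anhydrase of capillaries, with 0.424 and 0 FPKM against 488 and 1095 FPKM, the sialomucin Cd34 with 0.0268 and 0 FPKM against 256 and 212 FPKM, and Spp2 with 0 and 0 FPKM against 281 and 405 FPKM. In single cells, Spp2 and Cd34 were highest outside the endothelial-led cells: Spp2 had 2403 FPKM in cell 10, led by ependymal markers, and Cd34 had 958 FPKM in cell 19, led by microglia markers.

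Transporters of the blood-brain barrier followed the vessels at a smaller ratio. All 15 with a line in the table were higher in pools 2 and 3, 13 with the gap of 4-fold, at a median log2 ratio of -3.46. Bsg, the chaperone of lactate transporters, had 951 and 565 FPKM against 5728 and 7836 FPKM, and Slc2a1, the glucose transporter, had 59.1 and 141 FPKM against 661 and 1475 FPKM. Slco1c1, a thyroid hormone transporter, had 88.9 and 93.1 FPKM against 432 and 547 FPKM. These genes were lower, and still clearly present, in the Ttr-rich pools. The efflux pump Abcb1a, by contrast, had 0.0242 and 0.0229 FPKM against 46.4 and 273 FPKM, and the amino acid carrier Slc38a5 0.0341 and 0.303 FPKM against 107 and 439.8 FPKM.

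Receptors and signals of vessels gave 14 of 16 higher in pools 2 and 3, 11 with the gap of 4-fold, at a median log2 ratio of -3.43. Flt1, Kdr, Tek, Tie1 and Eng of this list are also endothelial markers counted above. Among receptors of vascular growth factors, Flt1 had 0.361 and 0.0332 FPKM against 211 and 405 FPKM and Kdr 3.4 and 2.15 FPKM against 82.5 and 128 FPKM. The endoglin gene Eng, a co-receptor of the TGF-beta family, had 0.0188 and 0.0571 FPKM against 333 and 656 FPKM, and the angiopoietin receptor Tek 0.0153 and 0.0261 FPKM against 73.1 and 63.5 FPKM. Flt1 and Eng are 2 of the genes whose starts are shown above. Prom1, often used as a stem cell marker, had 0.0345 and 1.3 FPKM against 211 and 241 FPKM and its highest single cell was cell 7, an endothelial-led cell. S1pr1 and Notch1 overlapped. S1pr1 was listed at 0 in pool 1 and had 220.1 FPKM in pool 4, above pools 2 and 3 at 89.2 and 98.9 FPKM, and its highest single cell was the astrocyte-led cell 11.

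The claudins, which set what passes between cells, divided by gene. Of 12 genes with a claudin symbol found in a pool, Cldn5 alone was higher in pools 2 and 3, 8 were higher in pools 1 and 4, and 3 overlapped. These were Cldn3, with 27.7 and 18.4 FPKM against 16.9 and 62.2 FPKM, and Cldn22 and Cldn24, which reached 1 FPKM in pool 2 only. The gap of 4-fold was passed by Cldn5 and, on the Ttr-rich side, by Cldn9, Cldn12 and Cldn25 only. The gene listed as Cldn25, which GENCODE M21 names Cldnd1, a claudin domain gene, had 202 and 234 FPKM against 45.8 and 20.3 FPKM. Cldn11, the claudin of myelin, had 714 and 440.3 FPKM against 209 and 0.126 FPKM. Cldn2, the claudin of leaky epithelia such as choroid plexus, had 70.3 and 18 FPKM against 6.42 and 0 FPKM, and Cldn1 14.5 and 7.65 FPKM against 0 and 1.8 FPKM. Cldn10 had 3.14 and 157 FPKM against 0 and 0.144 FPKM, so its place on the Ttr-rich side rested on pool 4 for level. Other junction genes showed no such order: of 13, 3 were higher in pools 1 and 4, 6 in pools 2 and 3 and 4 overlapped. The vessel genes Esam, with 13.7 and 0.24 FPKM against 509 and 794 FPKM, and Lsr, with 2.32 and 3.87 FPKM against 131 and 326 FPKM, led the Ttr-poor side.

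**Figure D3:**
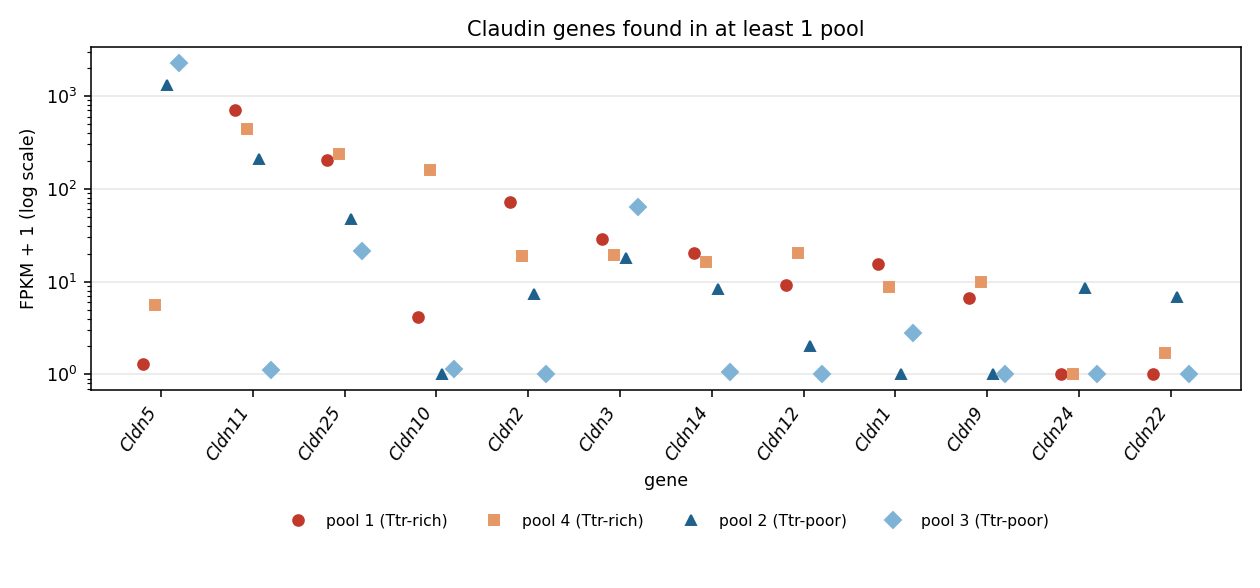
FPKM + 1 on a log scale for the 12 genes with a claudin symbol found in at least 1 pool, 1 symbol per pool, ordered by their highest pool. Cldn5 is the only one with both Ttr-poor pools on top, Cldn11 and Cldn2 are high in pools 1 and 4 with pool 2 next, and Cldn10 is carried by pool 4.

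Immediate early genes, transcription factors and regulators that cells switch on quickly and briefly after stimulation, were higher in pools 2 and 3 throughout. All 15 found in a pool were on that side, 8 with the gap of 4-fold, at a median log2 ratio of -3.25, from -2.51 to -3.11 without single pools. They were not absent from the others, as all 15 reached 1 FPKM in every pool. Fos had 297 and 259 FPKM against 666 and 1265 FPKM, Atf3 42.4 and 65.9 FPKM against 773 and 641 FPKM and the phosphatase Dusp1 114 and 60.4 FPKM against 1220.4 and 463 FPKM. Klf4, with 6.65 and 8.74 FPKM against 303 and 450.3 FPKM, and Klf2, with 19.8 and 4.9 FPKM against 161 and 460.3 FPKM, had the largest ratios of the list, and both are also known as regulators of endothelium. In the single cells the highest value lay in an endothelial-led cell for 8 of the 15, in a microglia-led cell for 6 and in a neuroblast-led cell for 1. Over all protein-coding genes found in a pool these shares were 25.5%, 9.5% and 20.25%. The endothelial-led and the microglia-led counts thus both lay above the share of all genes. Microglia-led and neuroblast-led cells share low-level traces of each other's genes, as described below. The part of vessel or microglia genes in the difference between the pools was not tested.

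Genes of antigen presentation and interferon response gave 11 of 16 higher in pools 2 and 3, 2 with the gap of 4-fold, at a median log2 ratio of -1.58. H2-D1, a class I heavy chain, had 78 and 80.2 FPKM against 334 and 330.2 FPKM, and Ifitm3 39.5 and 34.9 FPKM against 379.9 and 551 FPKM. Class I genes belong to a family of near-identical copies, so fragments may be shared between them. Basement membrane and integrin genes gave 10 of 14 on the same side at a median of -2.03, with the collagen gene Col4a2 at 11.7 and 1.72 FPKM against 84.7 and 144 FPKM and Sparc at 301 and 465 FPKM against 1409.6 and 3099 FPKM. Itgb4 and Nid2 ran the other way. Itgb4 had 34.7 and 2.05 FPKM against a listing of 0 in both Ttr-poor pools, and Nid2 14.6 and 8.85 FPKM against 1.53 and 2.48 FPKM.

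Energy genes showed small ratios toward the Ttr-rich side. Of 19 oxidative phosphorylation genes, 12 were higher in pools 1 and 4 and none in pools 2 and 3, 7 overlapped, and the median log2 ratio was 0.67. Cox7b had 888 and 750.3 FPKM against 98.2 and 62.2 FPKM, and Atp5b 1138 and 919.8 FPKM against 716 and 869.6 FPKM. Of 16 glycolysis genes, 7 were higher in pools 1 and 4, 2 in pools 2 and 3 and 7 overlapped. The lactate dehydrogenase genes parted: Ldhb had 751 and 525 FPKM against 73.8 and 43.7 FPKM and Ldha 199.7 and 112 FPKM against 669 and 289.9 FPKM. Iron genes parted as well. The ferritin heavy chain Fth1 had 11236 and 8517 FPKM against 1807 and 2395 FPKM, the transferrin receptor Tfrc 2.81 and 6.75 FPKM against 76.4 and 89.6 FPKM and the iron exporter Slc40a1 0 and 1.408 FPKM against 32.4 and 33.1 FPKM. Of 14 genes often taken as housekeeping, 1 was higher in pools 1 and 4, 7 in pools 2 and 3 and 6 overlapped. Their median log2 ratio was -0.50, and -1.06 without pool 1, so the pools were not level by this list. Ppia had 2589 and 437 FPKM against 1917 and 437 FPKM and Actb 816 and 1072 FPKM against 1362 and 1854 FPKM.

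Among the other cell types, microglia genes lay higher in the Ttr-poor pools, while most astrocyte and ependymal genes overlapped between the sides. Astrocyte markers lay mainly in pool 4: the list level was 7.44 there and 1.38 to 2.86 in the other 3 pools, and 14 of 16 markers overlapped. Aldoc had 3.79 and 1387 FPKM against 25.4 and 94.7 FPKM, and the connexin gene Gjb6 0 and 269.7 FPKM against 1.01 and 0.0343 FPKM. The list's median log2 ratio of 2.44 became -1.03 without pool 4. Ependymal and cilia markers were also highest in pool 4, at 6.64, and lowest in pool 1, at 2.79, with 11 of 15 overlapping. Microglia markers lay mainly in pool 2, at 6.87, with 4.40 in pool 3, 2.53 in pool 1 and 0.98 in pool 4, and 9 of 14 were higher in both Ttr-poor pools, 2 with the gap of 4-fold, and none in both Ttr-rich pools. The signalling adaptor Tyrobp had 1.35 and 18.4 FPKM against 559 and 80.6 FPKM, and the list's median log2 ratio of -3.15 became -1.24 without pool 2.

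Mural cell markers, of pericytes and smooth muscle around vessels, did not go with the endothelial genes. Of 16, 13 overlapped. Contractile genes were highest in pool 1, with the smooth muscle actin Acta2 at 1159 and 172 FPKM against 3.46 and 2.5 FPKM and Tpm2 at 405 and 0.336 FPKM against 20.5 and 0 FPKM, and Myh11 at 52.4 FPKM in pool 1 and listed at 0 in pools 2 and 4. Pericyte genes were highest in pool 2, where Higd1b had 245 FPKM and was listed at 0 in the other 3 pools, and Vtn had 6.21 and 35.1 FPKM against 413 and 0.0869 FPKM. No single cell reached 1 FPKM of Myh11 or Higd1b. Neuroblast markers were sparse, with 9 of 16 found in a pool and 8 of these overlapping, and the defining gene Dcx reached 1 FPKM in no pool. Of 13 stem and progenitor markers found, 3 were higher in pools 1 and 4, 4 in pools 2 and 3 and 6 overlapped, with the filament gene Vim at 338 and 1220.0 FPKM against 755 and 1583 FPKM. Neuron markers were sparser, with 4 of 12 found, of which Ppp1r1b, a phosphatase inhibitor, had 123 and 143 FPKM against 0.0779 and 0 FPKM and its highest single cell was the astrocyte-led cell 14.

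**Figure D4:**
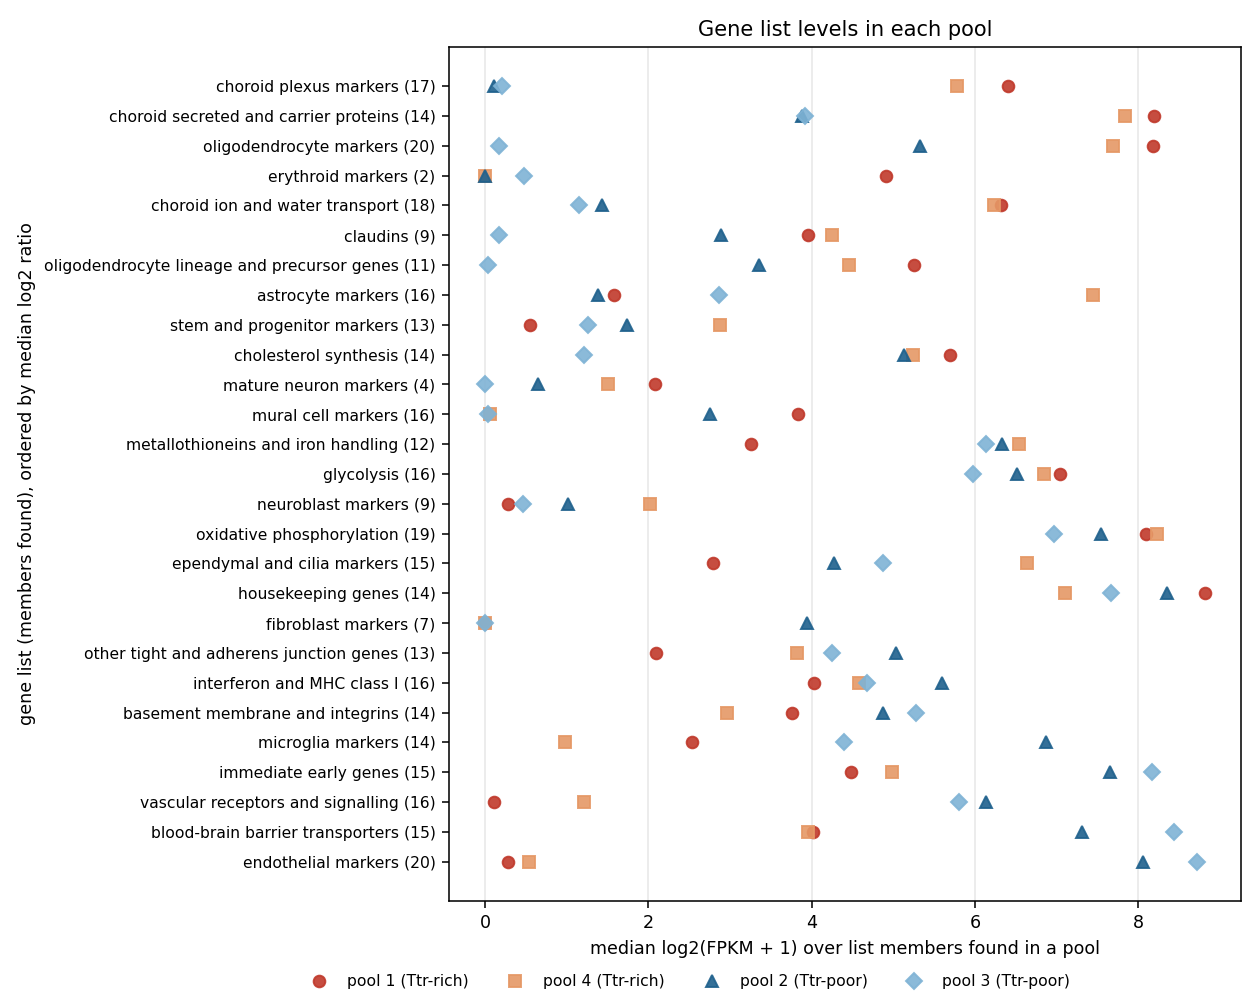
Each row is a gene list with the number of members found in a pool, and each symbol the median log2(FPKM + 1) of those members in 1 pool. Choroid and endothelial lists separate the pools by pairs in opposite directions, oligodendrocyte lists place pool 2 between, the microglia list is higher in both Ttr-poor pools, and astrocyte, mural and erythroid lists are led by 1 or 2 pools that cross the pairs.

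The pools of one side were not alike. Between pools 1 and 4, choroid markers were higher in pool 1 by a median of 1.18 on the log2 scale and oligodendrocyte markers by 0.80, while astrocyte markers were lower there by 5.08. Among the largest differences in favour of pool 4 were Gm10197, a predicted gene, and Crym, a thyroid hormone binding protein, with 0 and 305 FPKM against 0.326 and 0.239 FPKM. Among those in favour of pool 1 were Tpm2 and the glutathione transferase genes Gstp1 and Gstp2. Gstp1 and Gstp2 are near-identical copies, both listed at 0 in pools 3 and 4. Between pools 2 and 3, the largest differences in favour of pool 2 included Lyz2, lysozyme of macrophages, with 0 and 0.0464 FPKM against 2449.9 and 0 FPKM, Plac8 and Mbp. In favour of pool 3 they were Mylpf, with 0 and 0.822 FPKM against 0 and 324 FPKM, Mboat1, Eef1d, Lepre1 and Ptgis. Some of these may be failed estimates, since 14 protein-coding genes were listed at 0 in pool 1 and at 100 FPKM or more in pool 4, 9 the other way, 6 at 0 in pool 2 beside such a value in pool 3, and 17 the other way.

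The 28 single cells did not enter the choice of the pools, but the labels do not say whether cells and pools share animals or preparations. They are therefore not outside support. They are used only to describe which cells hold the genes that set the pools apart. Each cell was described by the marker list with its highest mean log2(FPKM + 1): 8 cells were led by endothelial markers, 3 by oligodendrocyte markers (cells 4, 12 and 13), 2 by astrocyte markers, 3 by ependymal markers, 4 by microglia markers, 7 by neuroblast markers and 1, cell 5, by choroid plexus markers. For each protein-coding gene called with the gap of 4-fold, the cell with the highest value was taken. Of 513 such genes on the Ttr-rich side, 164 (32.0%) were highest in an oligodendrocyte-led cell, 94 (18.3%) in the choroid-led cell 5 and 92 (17.9%) in an astrocyte-led cell. The same shares over all 12805 protein-coding genes found in a pool were 11.02%, 5.45% and 8.96%. A further 88 (17.15%) were highest in a neuroblast-led cell, 44 (8.58%) in an ependymal-led cell and 24 (4.68%) in a microglia-led cell, beside 20.25%, 14.65% and 9.47% of all genes. The remaining 7 (1.36%) were highest in an endothelial-led cell, all of them in cell 6, beside 25.5% of all genes.

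Of 473 genes on the Ttr-poor side, 343 (72.5%) were highest in an endothelial-led cell, 58 (12.26%) in an ependymal-led cell, 44 (9.30%) in a microglia-led cell and 28 (5.92%) in a neuroblast-led cell. The ependymal-led and microglia-led shares lay near those of all genes given above, and the neuroblast-led share below. The ependymal-led cells were not alike, as the 58 genes were highest in cell 9 (30) or cell 10 (28). Cell 15 held 0 of them, but all 44 ependymal-led genes of the Ttr-rich side. Over all protein-coding genes, cells 9, 10 and 15 held 4.79%, 4.82% and 5.05%. Such a split was not limited to ependymal-led cells. Of cells 1 to 17, only cell 6 held called genes of both sides, 7 of the Ttr-rich and 15 of the Ttr-poor side. Each of cells 18 to 28 held genes of both sides. Whether the split follows the type of cell or the single cell was not tested. None of the 473 genes was highest in an oligodendrocyte-led, choroid-led or astrocyte-led cell, beside 25.4% of all genes for these 3 kinds together. These shares are descriptions: some of the called genes are themselves markers of the lists that name the cells, cells are not replicates, and cells 18 to 28, which hold all microglia-led and neuroblast-led cells, were known from earlier results of these data to share low-level traces of each other's genes, which was not measured again here. Without those cells, the oligodendrocyte-led share of the Ttr-rich genes was 43.3%, beside 16.25% of all genes, and the endothelial-led share of the Ttr-poor genes 85.8%, beside 37.29% of all genes: the shares of all genes rose as well.

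**Figure D5:**
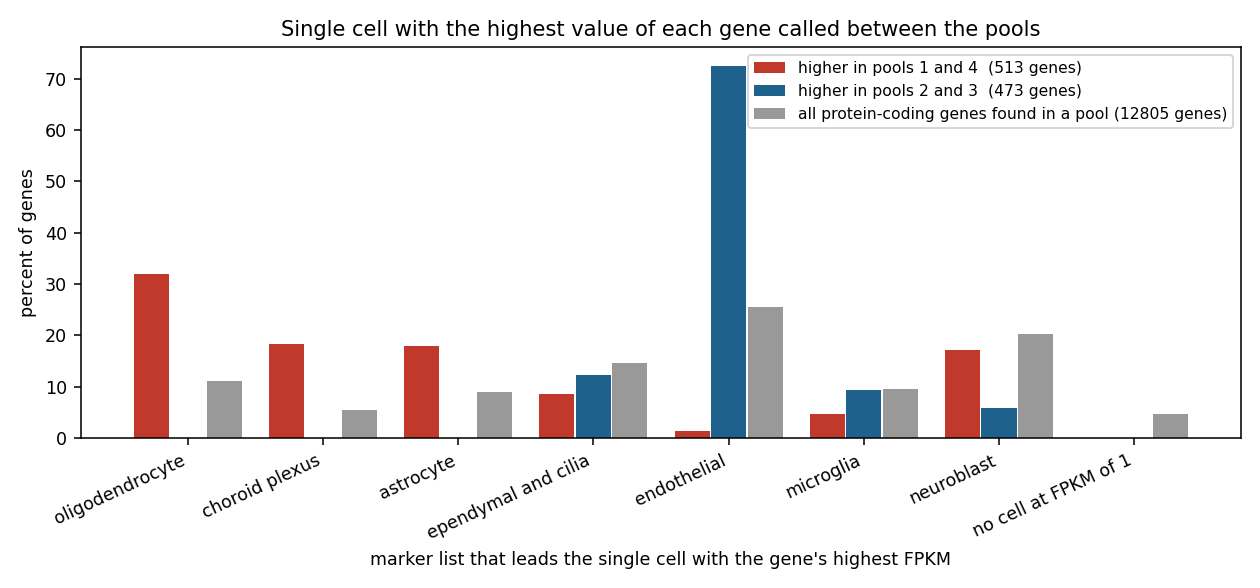
Percent of protein-coding genes whose highest single-cell FPKM lies in a cell led by each marker list, for genes higher in pools 1 and 4 with the gap of 4-fold (red), for those higher in pools 2 and 3 (blue) and for all protein-coding genes found in a pool (grey). The blue bar stands at 72.5% for endothelial-led cells, and the red bars exceed the grey ones for oligodendrocyte-led, choroid-led and astrocyte-led cells.

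The genes drawn from each kind of cell were not in one proportion in the 2 Ttr-rich pools. Of the 94 genes highest in the choroid-led cell, 71 were higher in pool 1 than in pool 4, with medians of 21.2 and 12.8 FPKM. Of the 164 highest in oligodendrocyte-led cells, 119 were higher in pool 1, with medians of 32.8 and 28.1 FPKM. Of the 92 highest in astrocyte-led cells, 23 were higher in pool 1, with medians of 13.04 and 30.2 FPKM. Of the remaining genes of that side, 11 of 44 ependymal-led, 15 of 24 microglia-led, 55 of 88 neuroblast-led and 7 of 7 endothelial-led ones were higher in pool 1. Among the 343 endothelial-led genes of the Ttr-poor side, 121 were higher in pool 2 than in pool 3, with medians of 37.8 and 46.6 FPKM. So were 18 of 58 ependymal-led, 20 of 44 microglia-led and 17 of 28 neuroblast-led genes of that side. Endothelial-led genes make up most of the Ttr-poor side, so nothing particular to them is read from their count.

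Ttr itself did not behave like the other choroid genes in single cells. The choroid-led cell 5 held the highest value of 15 of the other 17 choroid markers, among them 8188 FPKM of Enpp2 and 1481 FPKM of Folr1. That count is partly fixed in advance, since the cell was named by these same markers. Ttr was listed at 0 in cell 5, which may be a failed estimate. The highest single-cell value of Ttr was 917 FPKM, in the astrocyte-led cell 14, under the limit that defined the Ttr-rich pools. Ttr reached 1 FPKM in 10 of the 28 cells, of several kinds. It had 249 and 219 FPKM in the endothelial-led cells 6 and 2, 104 FPKM in the ependymal-led cell 15 and 78 FPKM in the oligodendrocyte-led cell 13. In each of cells 18 to 28 it was listed at 0. The choice of pools 1 and 4 did not depend on the exact limit, since no pool lay between 25.1 and 19813 FPKM.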

How the data were processed

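The measurements are RNA levels in 4 pools of 10 cells and 28 single cells. Per the submitters' processing notes, TopHat 1.41, Cufflinks 2.02 and build mm9 were used, and the authors deposited 1 table of FPKM per gene. The loci match GRCm38 in place of mm9: 99.7% of lines with a GENCODE M21 gene ID overlap that gene, so coordinates are GRCm38, with the start moved from a count from 0 to a count from 1. The strand setting is not given in the sources used here, so overlapping and antisense genes and near-identical copies are uncertain.

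Lines of one symbol were summed (39011 lines, 38740 symbols), and 27 symbols that had become dates were restored from their gene IDs. The filter was 1 FPKM in any pool and the pseudocount 1 FPKM. Named genes were Ttr, Mbp, Cldn5, all claudins found in a pool (3 by symbol, beyond the claudin list), the 4 most abundant members of each of 27 lists, the 10 largest gaps in each direction among protein-coding genes with 10 FPKM in both higher pools, the 5 largest differences in each direction within the pairs, and members of the 3 main lists against their direction. Other genes named were chosen after their values were seen. The members and lists were chosen with earlier results of these data known. Some genes stand in more than 1 list, so counts of different lists are not separate results. Depth came from FPKM times length less 200 bp in genes of 1 exon; other lengths were tried and this one kept after the steps were seen. The calling rule was tested on simulated data. No rate of false calls in the pools is given here, so nothing is read from that test. Python 3.11.15, numpy 2.4.6, pandas 2.3.3 and matplotlib 3.10.9 were used. Promoter windows are from RefSeq. Mvd and Slc7a5 had no line in the table. A few genes that the naming rule picks are not reported here. The alternatives were other pseudocounts, filters, scalings, Ttr limits and gaps, 1 line per symbol, each pool left out, and cells 18 to 28 left out.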

Additional observations from a re-analysis of the deposited data

Results flagged for a closer look

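Of 27 list levels, each the median log2(FPKM + 1) of a list's members over 4 pools, 4 had 1 pool far from the other 3; the gap to the nearest pool, over the whole range, passed Dixon's 95% limit. Among groups of independent, normally spread values, chance flags about 1 in 20. The levels here are medians with a floor at 0, from lists that share members, so that rate may not hold. The cholesterol synthesis level was 1.22 in pool 3 and 5.13 to 5.69 in the other pools. The fibroblast level was 3.95 in pool 2 and 0 in the other pools, where Dcn, a matrix proteoglycan, and Lum were listed at 0. A level takes only members that reached 1 FPKM in any pool. All 7 such fibroblast members did so in pool 2, against 3, 2 and 2 in pools 1, 3 and 4. The filter thus favours the pool that stands out, and nothing is read from this flag. The erythroid level was 4.91 in pool 1 and 0 to 0.48 in the other pools, from Hba-a1 and Hba-a2, near-identical copies at 28.2 and 29.8 FPKM in pool 1. Of 5 erythroid genes only these 2 reached 1 FPKM, and only in pool 1, so the filter favours that pool too. The level of metallothioneins and iron genes was 3.25 in pool 1 and 6.14 to 6.53 in the other pools, with Mt2 and Cp listed at 0 in pool 1.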

How the results depend on the processing

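No paired analysis was possible because no test between the sides was made and the pool numbers name no shared animal or batch. With a pseudocount of 0.1 FPKM the counts with the gap of 4-fold were 1035 (Ttr-rich side) and 810 (Ttr-poor side), and the medians were 5.85 (choroid markers), -7.55 (endothelial markers) and -4.07 (barrier transporters). With 10 FPKM the counts were 120 and 172, and the medians 2.41 (choroid), -4.56 (endothelial) and -2.83 (immediate early genes). Without a filter the immediate early median was -2.88, and with 10 FPKM in any pool 2049 genes were higher on the Ttr-rich side. With gaps of 2-fold and 16-fold, the endothelial-led share of Ttr-poor genes was 63.5% and 84.4%; with 16-fold the oligodendrocyte-led share of Ttr-rich genes was 40.7%. Without cells 18 to 28 these shares were 85.8% and 43.3%, beside 37.29% and 16.25% of all genes.

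Leaving out each pool in turn asks fewer pools to agree, and counts rose: 4694 to 5800 and 4669 to 6864 genes were higher on each side, and 1002 to 1542 and 974 to 1568 with the gap of 4-fold. Medians then ranged from 3.94 to 5.47 (choroid), 3.62 to 7.65 (oligodendrocyte), -4.15 to -2.92 (barrier transporters), -3.11 to -2.51 (immediate early), -4.60 to -1.24 (microglia) and -1.03 to 4.12 (astrocyte). The stem and progenitor median was -1.72 without pool 4, against 1.28 with all pools and up to 1.81 without another; the cause was not tested. Rescaling the pools to one sum, one upper quartile or one protein-coding sum moved the median of all genes from -0.11 to between 0.021 and 0.079. Ttr limits of 100 and 10000 FPKM gave the same pools. Neither depth nor counting error can be given for every pool.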
